A study of Saccharomyces cerevisiae with 12 samples.

Results

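The measurement described here is the strain difference in the break response: for each gene, the log2 fold change of rad30Δ cells after DSB induction minus the log2 fold change of WT cells after DSB induction. It was computed for each gene of the deposited count table with at least 10 reads over the 12 libraries, which held 6490 of 7123 genes. Of the other genes 273 had 0 reads and 360 had 1 to 9 reads. At the limit itself, 17 genes with exactly 10 reads were taken, at interaction values of −3.63 to 3.36, and 21 genes with 9 reads were not. Below, this difference of 2 changes is called the interaction. A positive value means a larger rise or smaller fall in rad30Δ cells, and a negative value a smaller rise or larger fall in rad30Δ cells.

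RNA was sequenced from Saccharomyces cerevisiae in 4 groups with 3 libraries each. These were rad30Δ cells after DSB induction, rad30Δ cells in G2/M arrest, WT cells after DSB induction and WT cells in G2/M arrest. All cells were grown in 2% raffinose and held in G2/M with 80 µg/ml benomyl for 3 hours, and in the DSB groups 2% galactose was then present for 1 hour. The strains are of the W303 background and carry the HO endonuclease behind a galactose promoter. The study's strain table also gives the mutant smc1-259 allele with a galactose-driven SMC1-MYC copy. In that table, the only rad30Δ strain of α mating type with galactose-driven HO and no other gene deleted carries both. WT strains of a mating type with galactose-driven HO are listed with and without them. Levels of mating-type genes and of SMC1 are given below. Which of the listed strains were sequenced, and in which mating type, the sources used here do not state directly. Nor is it stated that replicates came from separate cultures, so p-values measure the spread between these libraries, which may be technical. No library had galactose without HO.

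Deposited counts summed to 5442935 to 7289514 reads per library. RAD30, which encodes the translesion polymerase Polη, had 0 reads in each of the 6 rad30Δ libraries (3 reads, the limit that a count of 0 allows for counting error, equal 0.399 to 0.584 CPM) and 38.6 to 52.4 CPM in the WT libraries. CPM here are counts scaled to library size with TMM factors. Markers of mating type split the strains. The 5 α-specific genes summed to 5885 to 6414 CPM in arrested rad30Δ cells, against 211 to 234 CPM in arrested WT cells, and the 7 a-specific genes to 82.4 to 102 CPM against 1627 to 1763 CPM. Loss of RAD30 and mating type therefore cannot be told apart in any value below. One library differed most from the rest, replicate 3 of the induced rad30Δ cells, with a TMM factor of 0.873 (0.971 to 1.05 in the other 11 libraries) and 0.205% of its reads on mitochondrial genes (0.0114% to 0.0743% in the others). Replicates 1 and 2 of that group also differed, with a chi-square per degree of freedom over genes of 16.6. It was 35.1 and 44.4 for the pairs with replicate 3, and 2.36 to 11.9 within the other groups. The main results are also given without replicate 3 of the induced rad30Δ cells.

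Haploid yeast are a or α cells according to the allele at MAT on chromosome III. The MATα allele encodes α1, which activates α-specific genes together with Mcm1, and α2, which represses a-specific genes. HO endonuclease cuts within MAT and thereby starts mating-type switching, for which the silent HML and HMR loci carry the spare copies. A DSB is sensed by the Mec1 and Tel1 checkpoint kinases, resected and repaired by recombination or end joining, and cohesin is loaded anew in G2/M. Polη copies damaged DNA during replication.

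Promoter sequences of the genes that carry the result are shown first. In 500 bases before the start codon, both strands were searched for CAATGNCAG, part of the element bound by α1 (the Q element), in S288C R64, the assembly that sacCer3 names. The motifs were chosen with the results known. Of 5865 genes with such a window 1.5% held a match, and of the 5 α-specific genes STE3, MF(ALPHA)2 and SAG1 did. The matches lie 341, 300 and 270 bases before the start codons, on chrXI:114934-114994, chrVII:345419-345479 and chrX:445097-445157, all on the minus strand. Capitals mark the motif, which in STE3 is on the opposite strand of the gene.
STE3: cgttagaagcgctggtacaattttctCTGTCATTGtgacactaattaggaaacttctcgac
MF(ALPHA)2: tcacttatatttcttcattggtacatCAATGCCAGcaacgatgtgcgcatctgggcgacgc
SAG1: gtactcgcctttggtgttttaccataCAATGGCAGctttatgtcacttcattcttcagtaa

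The a-specific genes were searched for CATGTAATT, part of the α2 operator, which was found in 0.512% of all windows and in those of STE6, BAR1 and AGA2 among the 7 a-specific genes. They are shown as the counterpart of the α-specific promoters, from chrXI:46473-46533 (minus strand), chrIX:322052-322112 (plus strand) and chrVII:437097-437157 (minus strand), with the motif in capitals. BAR1 held a further match on the other strand.
STE6: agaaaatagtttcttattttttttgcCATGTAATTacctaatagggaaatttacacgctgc
BAR1: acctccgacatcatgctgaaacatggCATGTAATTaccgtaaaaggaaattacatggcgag
AGA2: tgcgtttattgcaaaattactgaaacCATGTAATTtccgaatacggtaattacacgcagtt

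TGAAACA, the pheromone response element bound by Ste12, was in 11.9% of all windows, in 7 of 7 a-specific, 2 of 5 α-specific and 19 of 32 pheromone and haploid genes. A match is a description of these letters and not of a bound site.

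Across the genome few strain differences in the break response could be called in edgeR on 12 libraries, and some other settings called more. By the quasi-likelihood test of edgeR, with Benjamini-Hochberg adjustment over all genes tested, 4 of 6490 genes passed an adjusted p of 0.05, and in all of them the interaction was negative. They were MF(ALPHA)2, STE3 and SAG1, which are α-specific, and LIF1, the partner of DNA ligase IV in end joining. These 4 are 0.0616% of the genes tested, and 0% had a positive interaction that passed. At an unadjusted p under 0.05 stood 458 genes with a positive interaction (7.06%) and 409 with a negative one (6.3%). These are the shares to set beside the counts at that level in the lists below. DESeq2 called 36 positive (0.566%) and 30 negative genes (0.472%) among the 6359 genes to which it gave an adjusted p. Without replicate 3 of rad30Δ cells after DSB induction edgeR called 76 positive genes (1.17%) and 65 negative genes (1%), and the 4 genes above were among the 65. When libraries of equal number were blocked by strain, edgeR called 11 positive genes (0.169%) and 8 negative genes (0.123%), again with the 4 genes above. Of the genes described below, STE2, OPT2, POP3, BSC1, RRT6, YJR029W, TIP1, SSE2 and SSA3 also passed with the block. Whether equal replicate numbers mark shared cultures is not settled. Over the 6490 genes the median interaction was 0.01 with quartiles of −0.15 and 0.17, and −0.02 was the median without that library.

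**Figure D1:**
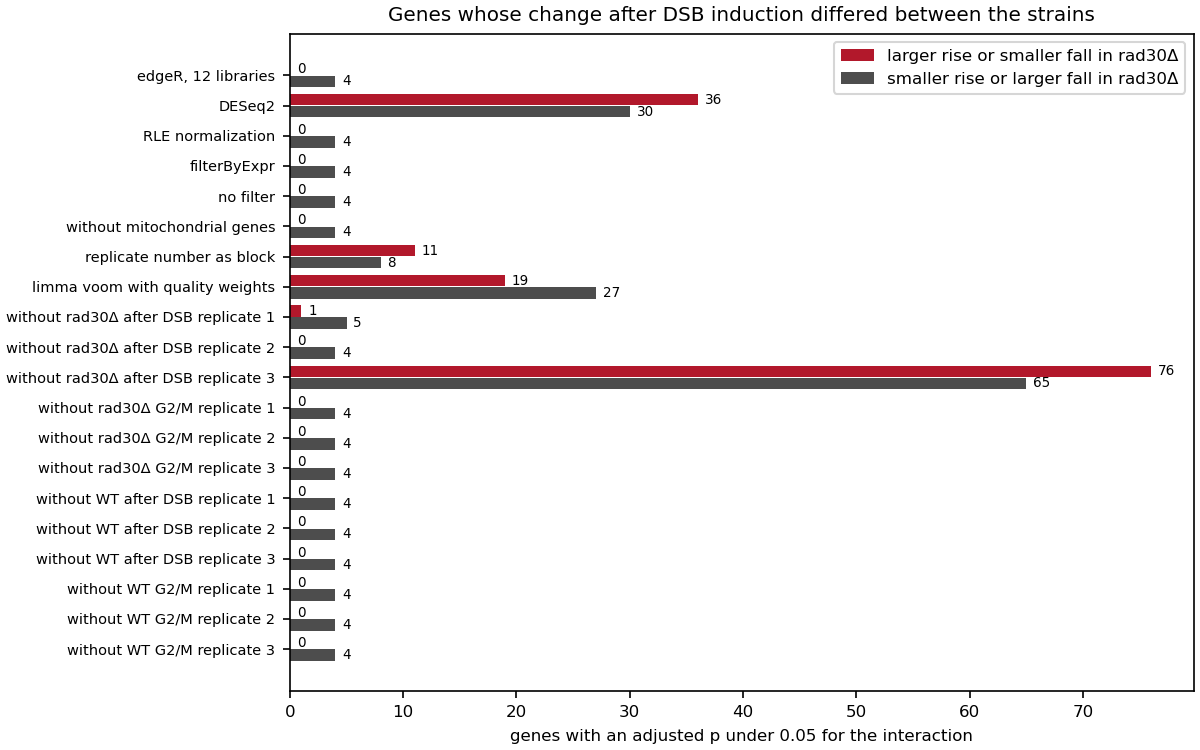
Number of genes with an adjusted p under 0.05 for the interaction (horizontal axis) in edgeR on 12 libraries, under 7 other settings and with each of the 12 libraries left out; paired bars give genes with a larger rise or smaller fall and with a smaller rise or larger fall in rad30Δ cells. The bars are 0 and 4 with 12 libraries and 76 and 65 without replicate 3 of rad30Δ cells after DSB induction, and no other single library left out gives more than 1 and 5.

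MF(ALPHA)2, which encodes α-factor pheromone, lies on chromosome VII (344791 to 345153, minus strand). It had 172, 151 and 178 CPM in rad30Δ cells after DSB induction and 1126, 974 and 1119 CPM in arrested rad30Δ cells, against 30.7, 27.1 and 27 CPM in WT cells after DSB induction and 42.9, 37.3 and 35.7 CPM in arrested WT cells. The groups before and after induction did not overlap in either strain. After DSB induction 15.5% of the arrested level was left in rad30Δ cells and 73.1% in WT cells. The interaction was −2.24 (standard error 0.14, edgeR adjusted p = 8.23e-06, 95% interval −2.55 to −1.93).

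STE3, the receptor for a-factor on α cells (chromosome XI, 113215 to 114627, minus strand), had 82.1, 102 and 105 CPM in rad30Δ cells after DSB induction and 663, 634 and 551 CPM in arrested rad30Δ cells. WT cells had 6.04, 7.41 and 4.72 CPM after DSB induction and 9.65, 10.5 and 12.5 CPM in arrest. The level left was 15.6% in rad30Δ and 55.7% in WT cells. Its interaction was −1.84 (standard error 0.23, edgeR adjusted p = 0.00482). STE3 was thus lower after induction in both strains, and the size of the fall differed.

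SAG1 encodes α-agglutinin, the cell surface protein that binds a cells during mating (chromosome X, 442909 to 444861, minus strand). Its level was 158, 128 and 182 CPM in rad30Δ cells after DSB induction and 417, 399.7 and 405 CPM in arrested rad30Δ cells, which do not overlap. In WT cells it was 71.4, 65.8 and 64.5 CPM after DSB induction and 59.9, 59.5 and 55.9 CPM in arrest, a log2 fold change of 0.20 that did not pass (adjusted p = 0.245, edgeR). The interaction was −1.59 (standard error 0.15, edgeR adjusted p = 2.87e-04).

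The other α-specific genes had negative interactions that did not pass. AFB1, whose product binds a-factor, had 168, 169.5 and 360.3 CPM in rad30Δ cells after DSB induction and 521, 515 and 677 CPM in arrested rad30Δ cells, against 20.5, 17.4 and 19.0 CPM in WT cells after DSB induction and 24.4, 17.1 and 16.3 CPM in arrested WT cells. Replicate 3 was the high one of the induced rad30Δ libraries. The interaction of AFB1 was −1.28 (standard error 0.40, edgeR adjusted p = 0.205), and without that replicate it was −1.73 (adjusted p = 0.00189). MF(ALPHA)1, the major α-factor gene, had 2070.0, 2169.7 and 2751 CPM in rad30Δ cells after DSB induction and 3657, 3363 and 3661 CPM in arrested rad30Δ cells. In WT cells it had 75.9, 70.6 and 65.0 CPM after DSB induction and 97.4, 95 and 91.1 CPM in arrest. It fell in both strains, by 0.61 and 0.42 on the log2 scale in rad30Δ and WT cells, and its interaction of −0.19 had a 95% interval of −0.51 to 0.13 (−0.33 without replicate 3, adjusted p = 0.0855, edgeR). All 5 α-specific genes fell in rad30Δ cells, where 2.65% of all genes tested fell, and 3 of 5 fell in WT cells, where 6.29% did. Their median interaction was −1.59, beside 0.01 over all genes.

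**Figure D2:**
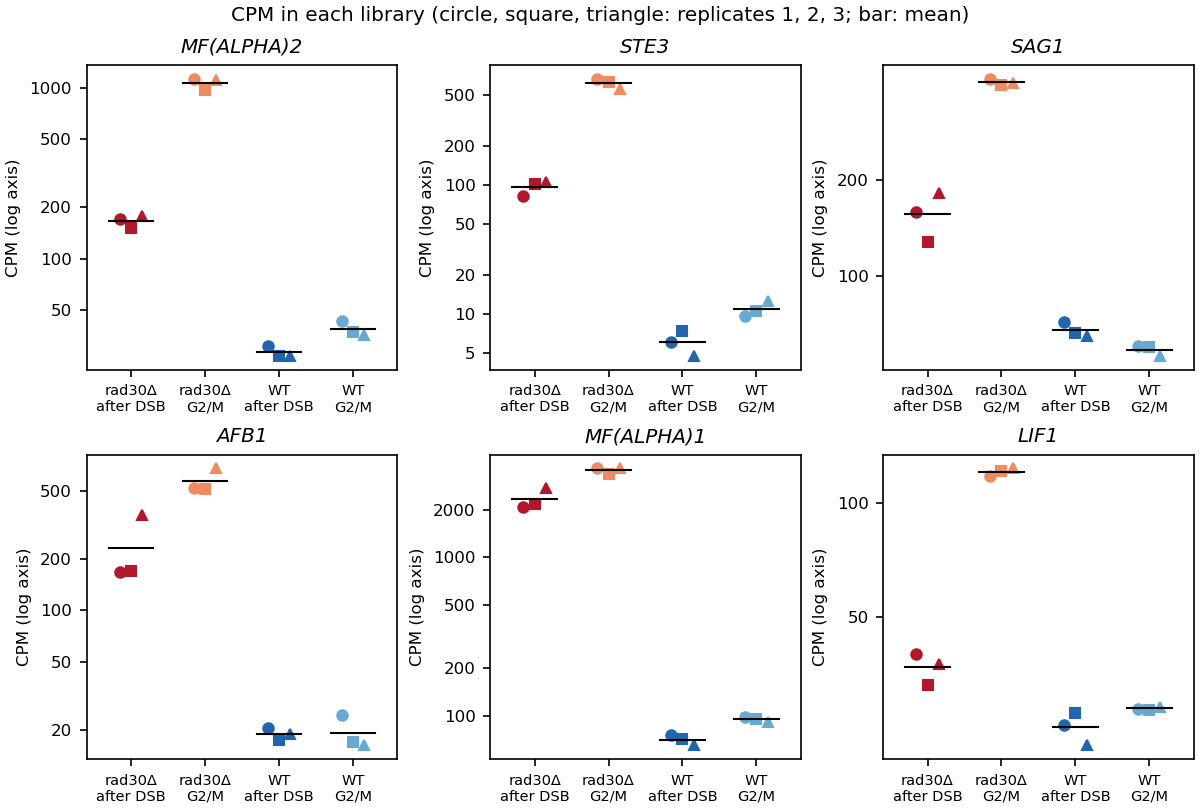
CPM of 5 α-specific genes and LIF1 in each of the 12 libraries (log axis), with circles, squares and triangles for replicates 1, 2 and 3 and a bar for the group mean. In rad30Δ cells the induced libraries of all 6 genes lie below the arrested ones, and in WT cells those of SAG1 lie above the arrested ones.

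LIF1 (chromosome VII, 343319 to 344584, plus strand) is the neighbour of MF(ALPHA)2, with 206 bases between the 2 coding regions, whose 3′ ends face each other. The sources used here do not state whether counting used strand, and reads that run past the end of one gene cannot be told from those of the other. LIF1 had 39.8, 33.0 and 37.6 CPM in rad30Δ cells after DSB induction and 118, 121 and 123 CPM in arrested rad30Δ cells, against 25.9, 27.8 and 22.9 CPM in WT cells after DSB induction and 28.5, 28.4 and 28.9 CPM in arrested WT cells. As with its neighbour, the arrested rad30Δ libraries were the high ones. The interaction was −1.55 (standard error 0.12, edgeR adjusted p = 5.09e-05). NBP35, on the other side of LIF1, had an interaction of 0.22 (adjusted p = 0.418, edgeR).

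NFG1 lies 383 bases from AFB1 on chromosome XII and was chosen after its values were seen. It had 30.6, 46.2 and 67.6 CPM in rad30Δ cells after DSB induction and 81.9, 88.9 and 82.7 CPM in arrested rad30Δ cells, against 26.2, 22.0 and 21.9 CPM in WT cells after DSB induction and 17.0, 16.6 and 13.7 CPM in arrested WT cells. Thus the induced rad30Δ libraries lay below the arrested ones, while those of WT cells lay above them. The interaction of −1.40 (standard error 0.31) did not pass with 12 libraries (adjusted p = 0.147, edgeR) and passed without replicate 3 (−1.71, adjusted p = 0.00189). Neither SAG1 nor STE3 had a neighbour whose interaction passed. MRX12 beside SAG1 stood at 0.33 (adjusted p = 0.274) and COY1 beside STE3 at −0.22 (adjusted p = 0.333, edgeR for both).

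The a-specific genes mostly had estimates of the opposite sign. None of the 7 passed in edgeR on 12 libraries, 1 passed with DESeq2, 6 had positive estimates, 3 of these had an unadjusted p under 0.05, and the median interaction was 0.35. Without replicate 3 of induced rad30Δ cells that median was 0.17. Of all genes 0.566% were positive with DESeq2 and 7.06% at the unadjusted level. STE2, the receptor for α-factor on a cells, had 15.1, 18.3 and 19.9 CPM in rad30Δ cells after DSB induction and 13.4, 17.7 and 17.2 CPM in arrested rad30Δ cells. In WT cells it had 393, 376 and 402 CPM after DSB induction, all below the 556, 554 and 596 CPM in arrest. Its interaction was 0.67 (standard error 0.16, adjusted p = 0.147, edgeR) and it was called by DESeq2 (adjusted p = 0.00603).

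STE6, the exporter of a-factor, was likewise lower after induction only in WT libraries, with 217, 213 and 206 CPM after DSB induction against 288, 285 and 332 CPM in arrest. In rad30Δ cells it had 27.5, 23.5 and 17.1 CPM after DSB induction and 18.8, 21.5 and 22.3 CPM in arrest, which overlap. The interaction was 0.64 (standard error 0.18, adjusted p = 0.189 with 12 libraries and 0.0166 without replicate 3, edgeR). BAR1, the protease that degrades α-factor, stood at 0.88 (standard error 0.39) and at 0.39 without replicate 3, which had 43 CPM beside 19.1 and 17.7 CPM in replicates 1 and 2. The a-factor genes MFA1 and MFA2 stood at 0.30 and −0.07, AGA2, a subunit of a-agglutinin, at 0.35 and ASG7 at 0.21. Without replicate 3 they stood at 0.01 for MFA1, −0.39 for MFA2, 0.17 for AGA2 and 0.11 for ASG7, so that these small values rest in part on that library.

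Apart from HMRA1 in WT cells, the mating loci themselves gave few reads. Their copies share sequence, so reads of MAT and of HML or HMR may be exchanged. How reads shared between copies were counted is not stated in the sources used here, so low counts may not show low expression. HMLALPHA1, the silent copy of the α1 gene, had 0, 0 and 1 reads in rad30Δ cells after DSB induction and 7, 4 and 5 reads in arrested rad30Δ cells. It had 0 reads in each of the 6 WT libraries. MATALPHA1 had 4 reads in all, in 2 arrested rad30Δ libraries, and was below the limit of 10 reads. HMLALPHA2 and MATALPHA2 had 20 reads each over the 12 libraries. HMRA2 had 293 reads and an interaction of 1.04, which did not pass. HMRA1, the copy of the a1 gene, had 54.2, 47.8 and 56.4 CPM in WT cells after DSB induction and 83.9, 82.7 and 84.3 CPM in arrested WT cells, a fall of 0.66 on the log2 scale (adjusted p = 2.13e-04, edgeR). In rad30Δ cells it had 3 to 4 reads per library after DSB induction and 5 to 7 in arrest. Its interaction of −0.04 rests on these few reads and sets no narrow limit on a strain difference. The SIR genes, which silence HML and HMR, had interactions whose adjusted p was 0.525 or more (edgeR).

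Among the tested genes within 10 kb of the MATα genes in the reference, TAF2 was the only one with an unadjusted p under 0.05. TAF2 encodes a subunit of TFIID, ends next to the MATALPHA1 gene and was chosen after its values were seen. It had 118, 127 and 133 CPM in rad30Δ cells after DSB induction and 146, 154 and 181 CPM in arrested rad30Δ cells, against 154, 163 and 159 CPM in WT cells after DSB induction and 152, 155 and 157 CPM in arrested WT cells. Its interaction of −0.39 did not pass (standard error 0.12, adjusted p = 0.196, edgeR). Neither did those of the genes on the other side, such as PHO87 at 0.28 and BUD5 at 0.22.

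The pheromone pathway signals through a MAP kinase cascade to Ste12 in both mating types. Of 32 pheromone and haploid genes none passed in edgeR on 12 libraries, 1 passed with DESeq2, 5 had a positive and 2 a negative interaction at an unadjusted p under 0.05, and the median was 0.06. Beside these counts, 0.566% of all genes were positive with DESeq2, and 7.06% were positive and 6.3% negative at the unadjusted level. FAR1, which arrests the cell cycle in response to pheromone, had 959, 975 and 1011 CPM in rad30Δ cells after DSB induction and 285, 265 and 270.1 CPM in arrested rad30Δ cells. WT cells had 655, 601 and 632 CPM after DSB induction and 216, 231 and 232 CPM in arrest. FAR1 thus rose in both strains, and its interaction of 0.37 did not pass with edgeR (standard error 0.09, adjusted p = 0.153) and passed with DESeq2 (adjusted p = 0.00438). FUS2, needed for cell fusion, stood at −0.83 (adjusted p = 0.189, edgeR).

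Most heat shock chaperone genes rose in both strains, and 24 of 25 had a negative interaction. In rad30Δ cells 18 of the 25 rose, beside 3.68% of all genes tested, with a median log2 fold change of 0.66 over the list. In WT cells 23 rose, beside 6.07% of all genes tested, with a median of 1.04. The median interaction was −0.28. In edgeR 0 of 25 passed with 12 libraries, and 9 had an unadjusted p under 0.05, all of them negative. With DESeq2 4 passed, and in edgeR without replicate 3 8 passed, where the median was −0.45. Of all genes 6.3% were negative at the unadjusted level, 0.472% with DESeq2 and 1% without replicate 3. The summed level of the list was 22609.6, 20410.5 and 31776 CPM in rad30Δ cells after DSB induction and 15898, 15858 and 16119 CPM in arrested rad30Δ cells. In WT cells it was 28739, 26793 and 27175 CPM after DSB induction and 15299, 14697 and 14261 CPM in arrest. Replicate 3 of the induced rad30Δ cells was above all WT libraries, and replicates 1 and 2 were below all induced WT libraries. Against the mean of the arrested libraries of the strain, on log2(CPM + 0.5), the median change over the 25 genes was 0.61, 0.45 and 0.80 in rad30Δ replicates 1, 2 and 3 and 1.08, 0.99 and 1.02 in the WT replicates. Replicate 1 was below all 3 WT libraries in 23 genes, replicate 2 in 25 and replicate 3 in 12. The larger mitochondrial share of replicate 3 moved with this, and its part in the result was not tested.

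SSE2, an Hsp110 nucleotide exchange factor for Hsp70, had 179, 159.7 and 225 CPM in rad30Δ cells after DSB induction and 95.3, 92.7 and 111 CPM in arrested rad30Δ cells. WT cells had 275, 275 and 269.9 CPM after DSB induction and 87.8, 98.1 and 80.3 CPM in arrest, so the induced WT libraries were above all rad30Δ ones. Its interaction was −0.71 (standard error 0.17, adjusted p = 0.147, edgeR), and it was called by DESeq2 (adjusted p = 0.0228) and without replicate 3 (−0.86, adjusted p = 0.00716). STI1, an Hsp90 cochaperone, stood at −0.48 (standard error 0.12, adjusted p = 0.153, and 0.0176 without replicate 3, edgeR). SSA3, a stress-inducible Hsp70 that was chosen after its values were seen, had 76.0, 92.9 and 129 CPM in rad30Δ cells after DSB induction and 65.5, 74.5 and 95.2 CPM in arrested rad30Δ cells, against 164, 203 and 202 CPM in WT cells after DSB induction and 67, 86.6 and 78.8 CPM in arrested WT cells. Its interaction was −0.96 (standard error 0.26, adjusted p = 0.176, edgeR), and it passed with DESeq2 (adjusted p = 0.0449), with the block (adjusted p = 0.00388) and without replicate 3 (−1.19, adjusted p = 0.0172).

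**Figure D3:**
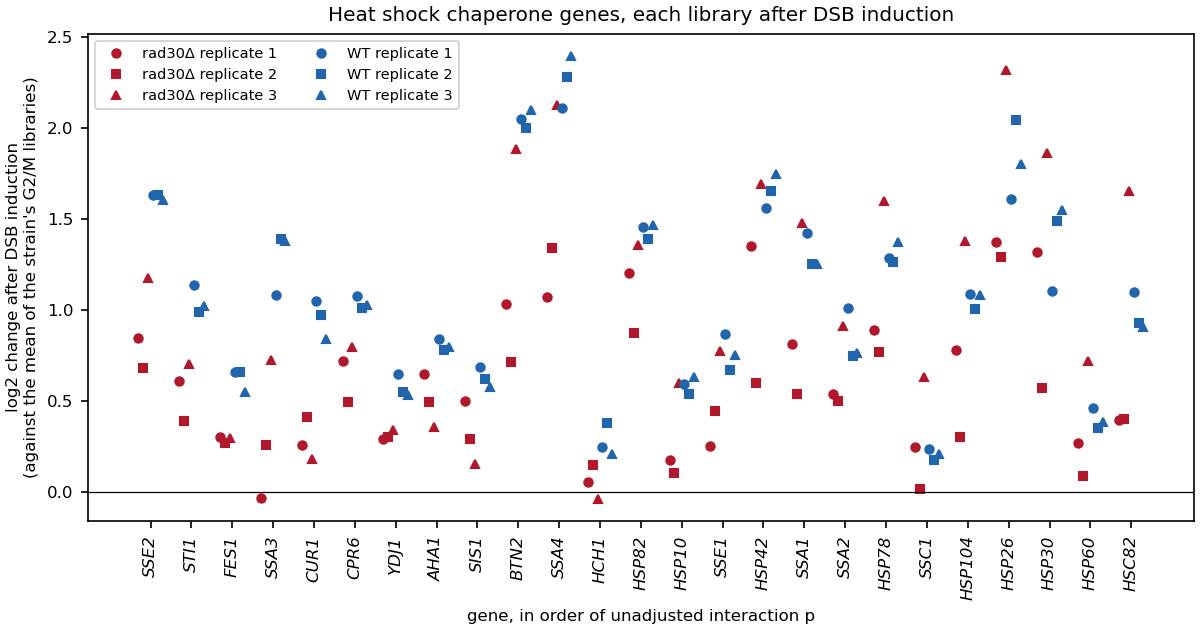
Change of 25 heat shock chaperone genes in each library after DSB induction, as log2(CPM + 0.5) minus the mean of the arrested libraries of that strain (vertical axis); genes run left to right by unadjusted p of the interaction. Replicate 2 of rad30Δ cells is below all WT libraries in 25 genes and replicate 3 in 12.

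A heat shock element of 3 alternating GAA units, the site of Hsf1, was found in 52% of the 25 windows and in 1.48% of all windows. STI1 held 2 matches, and one of them, on the plus strand of chromosome XV, is shown with the element in capitals (chrXV:380811-380875).
STI1: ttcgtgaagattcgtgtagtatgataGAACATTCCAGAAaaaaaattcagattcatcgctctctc
Chaperone genes with the element had a median interaction of −0.30 and those without it −0.27.

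Among genes of DNA repair LIF1 was the only one of 24 recombination and end joining genes that passed. At an unadjusted p under 0.05 stood 6 of the 24 with a negative and 1 with a positive interaction, and the median was −0.12. Of all genes tested 6.3% were negative and 7.06% positive at that level. EXO1, a nuclease of DSB resection, had 62.7, 70.2 and 73.0 CPM in rad30Δ cells after DSB induction and 76.5, 69.6 and 85.6 CPM in arrested rad30Δ cells. WT cells had 92.8, 86.2 and 102 CPM after DSB induction and 73.5, 75.3 and 78.8 CPM in arrest. The WT groups did not overlap and the rad30Δ groups did, and the interaction was −0.48 (standard error 0.13, adjusted p = 0.169, edgeR). Of 11 genes of translesion synthesis and damage tolerance none passed in edgeR or DESeq2, and 1 had an unadjusted p under 0.05. POL30, which encodes PCNA, stood at −0.62 (standard error 0.20, adjusted p = 0.221, and 0.0256 without replicate 3, edgeR).

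The checkpoint genes differed in sign. TEL1, the kinase that senses DSB ends, stood at −0.33 (standard error 0.12), and CHK1, an effector kinase, at 0.47 (standard error 0.14), and none of the 14 listed genes passed (0 with DESeq2 also). Of 20 damage-induced genes 0 passed in edgeR or DESeq2, with 2 positive and 1 negative at an unadjusted p under 0.05 and a median of 0.01 (−0.08 without replicate 3). Of 12 cohesin genes 0 had an unadjusted p under 0.05 (edgeR), and 0 passed with DESeq2. Their median interaction was −0.12.

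No strain difference was called in the galactose-driven genes themselves. HO had 3693, 4201 and 4694 CPM in rad30Δ cells after DSB induction and 35.7, 38.9 and 40 CPM in arrest, against 4761, 4597 and 4335 CPM in WT cells after DSB induction and 36.7, 41.4 and 42.8 CPM in arrest. Its interaction was −0.05 with a 95% interval of −0.35 to 0.26. SMC1 rose in both strains, by 4.70 and 4.95 on the log2 scale in rad30Δ and WT cells. It had 4289, 4214 and 3474 CPM in rad30Δ cells after DSB induction, against 5621, 5730 and 5370 CPM in WT cells. Whether the native SMC1 gene was mutant was not tested. The interaction of SMC1 stood at −0.24 (interval −0.52 to 0.04, and −0.15 without replicate 3). That of ADE3, where GAL-HO was inserted, stood at 0.30 (interval 0.04 to 0.57, adjusted p = 0.319, edgeR).

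Of 12 galactose genes 11 rose in each strain, beside 3.68% of all genes tested in rad30Δ cells and 6.07% in WT cells. Of the 12, 0 had an interaction that passed in edgeR or DESeq2, with 2 positive and 1 negative at an unadjusted p under 0.05 (7.06% and 6.3% of all genes). GCY1, an aldo-keto reductase, had 1241, 947 and 861 CPM in rad30Δ cells after DSB induction and 94.7, 96.2 and 73.5 CPM in arrest. WT cells had 723, 755 and 665 CPM after DSB induction and 82.4, 125 and 106 CPM in arrest. GCY1 stood at 0.75 and GAL3, the galactose sensor, at 0.58 (adjusted p = 0.199 and 0.219, edgeR). FUR4, the uracil permease beside GAL1, stood at −0.42. The list had a median of 0.21, and 0.27 without replicate 3.

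**Figure D4:**
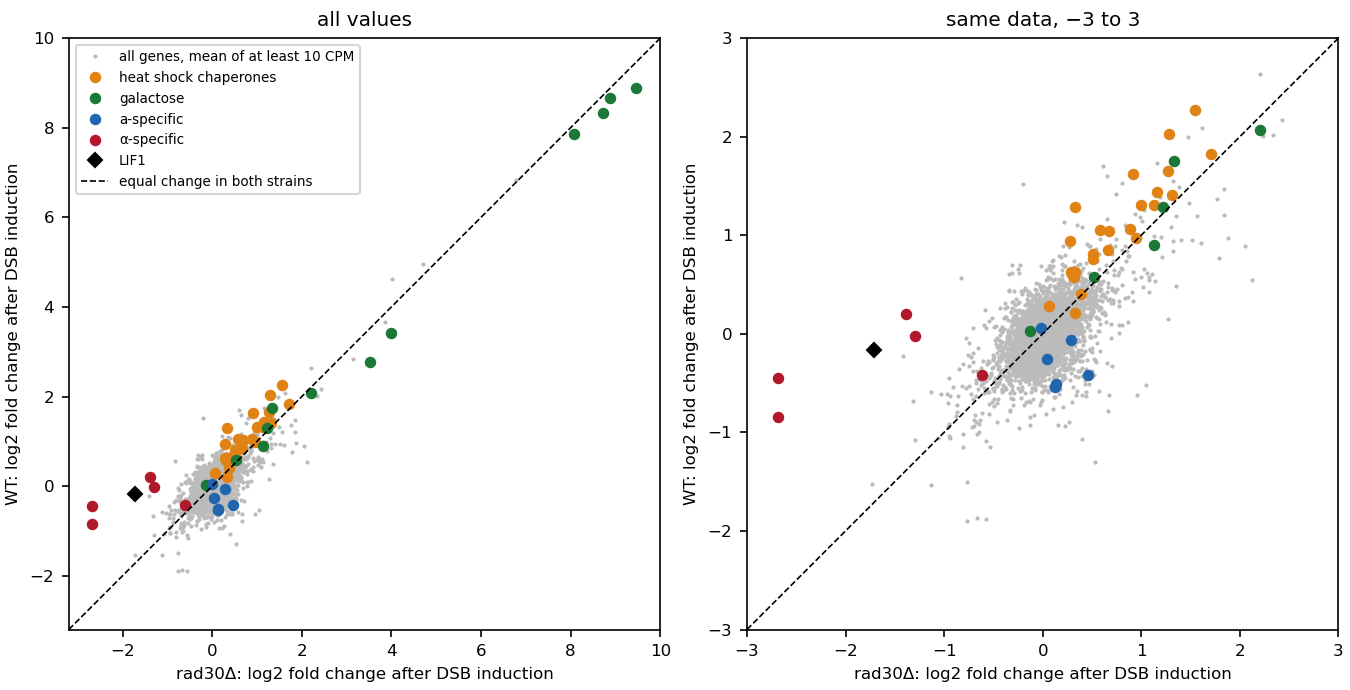
Log2 fold change after DSB induction in rad30Δ cells (horizontal) and WT cells (vertical) for genes that averaged 10 CPM or more, with α-specific, a-specific, galactose and heat shock chaperone genes in colour, LIF1 as a diamond and the line of equal change dashed; the right panel shows −3 to 3. The 5 α-specific genes and LIF1 lie left of the line, and 24 of 25 heat shock chaperones lie above it.

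Metabolic lists moved by small amounts. Of 53 amino acid synthesis genes 43 had positive estimates, 12 positive and 0 negative ones had an unadjusted p under 0.05, and the median was 0.13, with 0 genes passing in edgeR or DESeq2. Over all genes tested 3358 of 6490 estimates were positive, and 7.06% were positive and 6.3% negative at that level. ASN1, an asparagine synthetase, stood at 0.58 (standard error 0.18) and LYS12 of lysine synthesis at 0.40 (standard error 0.12). Both passed without replicate 3 (adjusted p = 0.0256 and 0.0373, edgeR). ASN1 had 548, 585 and 415 CPM in rad30Δ cells after DSB induction and 543, 568 and 448 CPM in arrest, which overlap, against 382, 411 and 350.1 CPM in WT cells after DSB induction and 515, 589 and 622 CPM in arrest, which do not.

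Among 19 glycolysis genes the phosphofructokinase subunits PFK1 and PFK2 stood at 0.69 and 0.64 (adjusted p = 0.164 and 0.199, edgeR). The list had 3 positive and 0 negative genes at an unadjusted p under 0.05, beside 7.06% and 6.3% of all genes tested. Its median was 0.25, and 0.16 without replicate 3. PFK1 passed with DESeq2 (adjusted p = 0.0346) and PFK2 in edgeR without replicate 3 (adjusted p = 0.0373). Of 17 phospholipid and fatty acid genes 4 negative and 0 positive ones had an unadjusted p under 0.05, beside 6.3% and 7.06% of all genes tested. As a list they were not one-sided, with 8 estimates above 0, 9 below 0 and a median of −0.005. The smallest p were those of CHO2 and OPI3, the methyltransferases that make phosphatidylcholine. CHO2 had 154, 127 and 134 CPM in rad30Δ cells after DSB induction and 229, 235 and 222 CPM in arrest, against 265, 267 and 276 CPM in WT cells after DSB induction and 317, 328 and 308 CPM in arrest. Its interaction was −0.49 and that of OPI3 −0.36 (adjusted p = 0.147 for both with edgeR, and 0.00524 and 0.00579 with DESeq2), and both passed without replicate 3. Of 74 ribosome biogenesis genes 4 were positive and 1 negative at an unadjusted p under 0.05, with a median of 0.04. Both counts are below the shares of all genes tested, 7.06% and 6.3%. NOP56, of small nucleolar ribonucleoproteins, stood at 0.65 (adjusted p = 0.161, edgeR). The 70 mitochondrial ribosome genes had a median of 0.10 with 12 libraries and −0.10 without replicate 3, so that the sign of this list rests on that library.

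**Figure D5:**
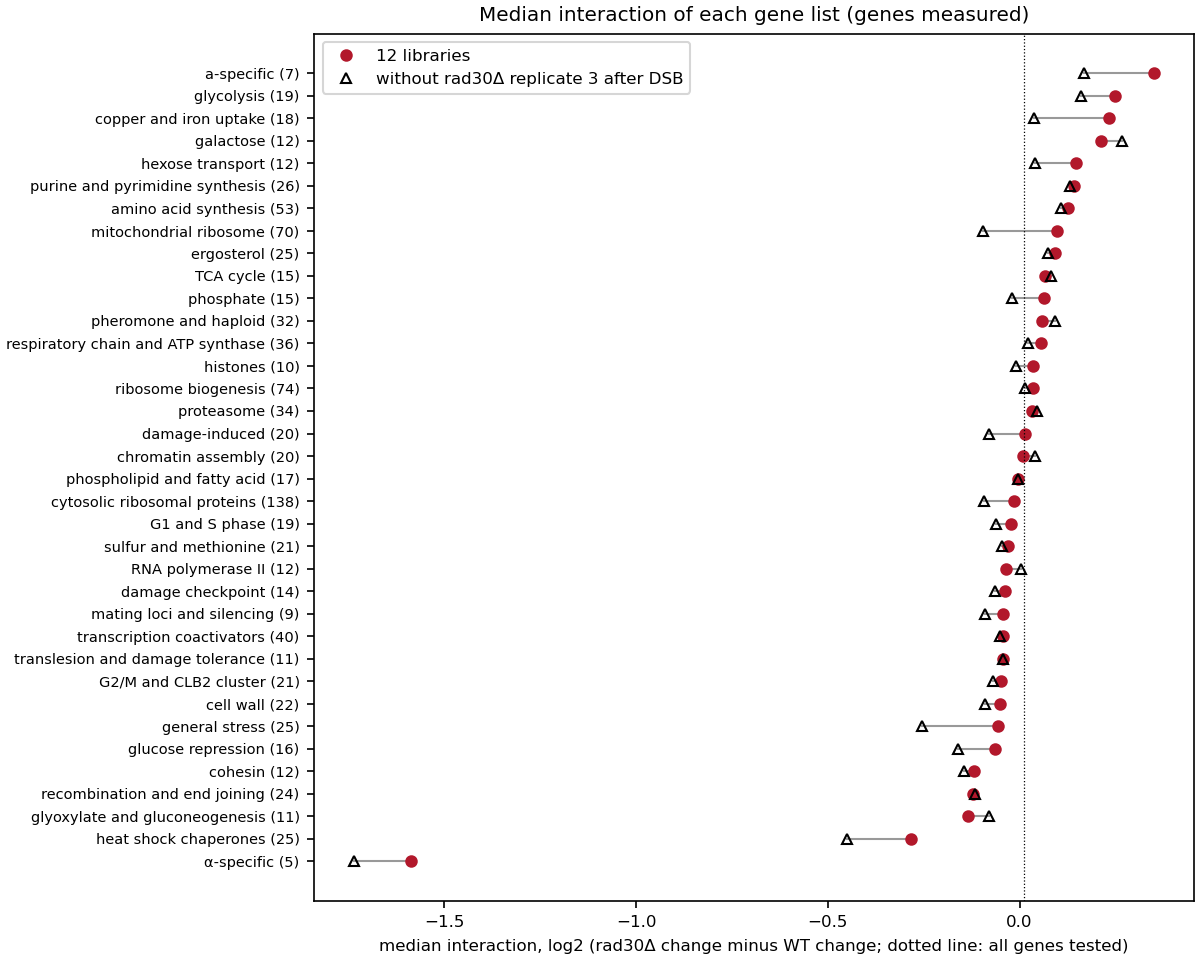
Median interaction (horizontal axis, log2) of 36 gene lists, with the number of genes measured, for 12 libraries (circles) and without replicate 3 of rad30Δ cells after DSB induction (triangles). The α-specific list is at −1.59 and the heat shock chaperones at −0.28, beside 0.01 over all genes (dotted line); the genes of the mitochondrial genome are not drawn.

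Beyond the α-specific genes and LIF1, the genes nearest to the threshold were TLD1, YOR1 and PNS1, each with an edgeR adjusted p of 0.0575. TLD1, a lipid droplet protein, had 39.4, 44.8 and 45.4 CPM in rad30Δ cells after DSB induction and 67.5, 64.2 and 61.4 CPM in arrest, against 83.1, 89.7 and 92.5 CPM in WT cells after DSB induction and 81.7, 90.2 and 82.3 CPM in arrest. It was thus lower after induction in rad30Δ cells, with an interaction of −0.64 (standard error 0.11). YOR1, an ABC transporter of the plasma membrane, had 213, 228 and 217 CPM in rad30Δ cells after DSB induction and 381, 394 and 379 CPM in arrest, against 346, 341 and 359 CPM in WT cells after DSB induction and 435, 437 and 422 CPM in arrest. YOR1 fell in both strains and its interaction was −0.50 (standard error 0.09). PNS1 was higher after induction only in WT libraries, at 115, 126 and 119 CPM against 75.1, 87.8 and 72.5 CPM in arrest, and in rad30Δ cells it had 93.9, 93.0 and 114 CPM after DSB induction and 118, 130.5 and 105 CPM in arrest. The interaction of PNS1 was −0.85 (standard error 0.15).

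All 3 passed with DESeq2 and without replicate 3. The same held for 5 further genes with a negative interaction, at an adjusted p of 0.0955 to 0.116 in edgeR on 12 libraries. TIP1, a cell wall mannoprotein, stood at −0.64, and MLS1, malate synthase, at −0.61. Both rose in WT cells, by 0.74 and 0.65 on the log2 scale, beside 0.10 and 0.03 in rad30Δ cells, which did not pass. CIS1 stood at −1.20, LCL1 at −0.64 and BUD13, of a complex that retains and splices pre-mRNA, at −0.62. CIS1 had 9.11, 13.2 and 16.2 CPM in rad30Δ cells after DSB induction and 33.6, 29.9 and 38.2 CPM in arrest, against 18.3, 18.7 and 18.0 CPM in WT cells after DSB induction and 19.3, 22.3 and 22.6 CPM in arrest.

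On the positive side, the 12 genes of smallest p that averaged 10 CPM or more and were called by at least 2 of 3 other settings were taken, as on the negative side. All 12 had an adjusted p of 0.0955 or more in edgeR on 12 libraries, under 0.05 with DESeq2 and under 0.05 without replicate 3. DESeq2 and the fit without replicate 3 were among the 3 settings, so that passing them is in part set by the choice. OPT2, an oligopeptide transporter, had 184, 128 and 112 CPM in rad30Δ cells after DSB induction and 35.8, 33.6 and 32.6 CPM in arrest, against 42.9, 46.3 and 48.4 CPM in WT cells after DSB induction and 21.1, 25.7 and 27.4 CPM in arrest. It rose in both strains, and its interaction was 1.16 (standard error 0.24). BSC1 had 25.8, 25.5 and 14.8 CPM in rad30Δ cells after DSB induction and 16.3, 17.4 and 12.3 CPM in arrest, against 6.38, 5.74 and 4.72 CPM in WT cells after DSB induction and 18.6, 8.53 and 14.2 CPM in arrest, an interaction of 1.83 (standard error 0.41). NPL3, an RNA-binding protein of mRNA export, fell in WT cells, with 224, 213 and 206 CPM after DSB induction against 326, 300.1 and 328 CPM in arrest, and overlapped in rad30Δ cells, with 248, 242 and 278 CPM after DSB induction against 258, 270.3 and 216 CPM in arrest. Its interaction was 0.61 (standard error 0.13). POP3, of the ribonuclease P and MRP complexes, stood at 0.95, PAC11, the dynein intermediate chain, at 0.79, and MMR1, which carries mitochondria to the bud, at 0.55. BDS1, a sulfatase, stood at 0.57, OAC1, the mitochondrial oxaloacetate carrier, at 0.54, RRT6 at 0.81, AIM10 at 0.99 and YBL100C at 1.29. YBL100C is among the 585 tested genes without a position in the annotation used.

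YJR029W, a Ty retrotransposon reading frame, had 207, 188 and 138 CPM in rad30Δ cells after DSB induction and 144, 140.0 and 113 CPM in arrest, against 82.6, 83.6 and 77.0 CPM in WT cells after DSB induction and 104, 111 and 132 CPM in arrest. Its interaction was 0.94 (standard error 0.20, adjusted p = 0.140, edgeR). Ty reading frames as a class were looked at after this value was seen. Of 50 measured, 43 had positive estimates and 20 positive and 0 negative ones an unadjusted p under 0.05, with a median of 0.63, and 0 passed in edgeR on 12 libraries, 2 with DESeq2 and 6 without replicate 3. Over all genes tested 3358 of 6490 estimates were positive, and 7.06% were positive and 6.3% negative at an unadjusted p under 0.05. Among all genes 0.566% passed as positive with DESeq2 and 1.17% without replicate 3. Near-identical Ty copies share reads and are not separate observations.

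The genes called without replicate 3 of the induced rad30Δ cells are described by their changes in each strain in that fit. Of all genes tested, 4.95% rose and 4.7% fell in rad30Δ cells in that fit, and 10.9% rose and 11.2% fell in WT cells. Of the 76 positive genes 44 fell in WT cells and were not called in rad30Δ cells, 16 rose in rad30Δ cells and were not called in WT cells, 9 rose in rad30Δ and fell in WT cells, 4 rose in both and 3 were called in neither. Of the 65 negative genes 31 rose in WT cells and were not called in rad30Δ cells, 9 fell in rad30Δ cells alone, 9 rose in both, 8 fell in rad30Δ and rose in WT cells, 7 fell in both and 1 was called in neither. A call in one strain and not in the other is here backed by the interaction test of that fit. The library left out lay on the side of the WT response. It was the lowest of the 3 induced rad30Δ libraries in 70 of the 76 positive genes and the highest in 58 of the 65 negative ones. The 65 negative genes had a median change of −0.19, −0.16 and 0.16 in rad30Δ replicates 1, 2 and 3 and 0.43 in WT cells, and the 76 positive ones 0.37, 0.29 and −0.08 beside −0.42. Both sets were called on replicates 1 and 2, so that this order is in part set by the choice. Of the DESeq2 calls, which used all 12 libraries, 23 of 36 positive and 26 of 30 negative genes were among them, which are 30.3% of the 76 and 40% of the 65.

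The error of the interaction was larger at low levels. Over the 5433 genes that averaged 10 CPM or more the median standard error was 0.14, against 0.10 for the response of each strain alone. It was 1.16 for 424 genes under 1 CPM and 0.43 for 633 genes from 1 to 10 CPM, where 0 genes passed with 12 libraries. Without replicate 3, 4 positive and 1 negative of the genes from 1 to 10 CPM passed (0.79%), and 0 of those under 1 CPM. On the 16 nuclear chromosomes the median interaction was between −0.01 and 0.04. In 5 classes of coding length it was −0.08 in the shortest class and 0.00, 0.04, 0.06 and 0.02 in the others, and −0.16 in the shortest class without replicate 3. The 31 mitochondrial genes had a median of 0.56 with 12 libraries and −1.37 without replicate 3, beside a median standard error of 1.5.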

How the data were processed

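RNA-seq of 12 libraries, 3 per group, was analysed. Libraries from enriched mRNA were read paired-end. Reads were trimmed (cutadapt), mapped to sacCer3 (HISAT2), freed of duplicates (Picard) and assigned to genes (featureCounts) by the authors, and the deposited table holds the resulting raw counts. Tool versions were not given in the sources used here. Other deposited tables hold the authors' own comparisons and were not used, except for the gene length column.

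Counts of 6490 genes with at least 10 reads were fitted in edgeR 4.0.16 (R 4.3.3), TMM-normalized, with 4 group means over 12 libraries, and the interaction contrast was tested with the quasi-likelihood test and Benjamini-Hochberg adjustment. The step was tested on simulated counts with the same spread in every group. The larger spread among induced rad30Δ libraries was not part of that test. Alternatives were DESeq2 1.42.0, limma 3.58.1 (voom with quality weights), RLE normalization, filterByExpr, no filter, no mitochondrial genes, the replicate number as a block, and each library left out. Symbols and positions are from R64 (5905 genes matched). Python 3.11.15 was used for sequences.

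Members and gene lists were chosen with earlier results of these data known. Named genes were those that passed; per direction the 12 with the smallest p among genes that averaged 10 CPM or more and were called by at least 2 of DESeq2, the block and the fit without replicate 3 of induced rad30Δ cells; mating-type genes; the 2 smallest p of other lists; galactose genes; strain checks; and neighbours.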

Additional observations from a re-analysis of the deposited data

Results flagged for a closer look

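The strain difference in the break response was itself tested and passed for 4 genes, all with a smaller rise or larger fall in rad30Δ cells, at interactions of −2.24 for MF(ALPHA)2, −1.55 for LIF1, −1.59 for SAG1 and −1.84 for STE3 (edgeR's quasi-likelihood test, adjusted p = 8.23e-06, 5.09e-05, 2.87e-04 and 0.00482). In each of them every induced rad30Δ library lay below every arrested rad30Δ library, which is in part set by their choice on these same libraries.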

How the results depend on the processing

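The count of genes whose response differed between the strains, 0 with a larger rise or smaller fall and 4 with a smaller rise or larger fall in rad30Δ cells, did not change with RLE normalization, filterByExpr, no filter or without mitochondrial genes. It was 36 and 30 with DESeq2 and 19 and 27 with limma voom and quality weights. Over the fits that left out 1 library it was 0 to 76 and 4 to 65, the highest without replicate 3 of induced rad30Δ cells, and 1 and 5 without replicate 1. The cause was not tested. The 4 genes were among those called by DESeq2, by voom and without replicate 3.

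With the replicate block the counts were 11 and 8, the 4 genes among them. The labels do not say that equal numbers mark a shared culture. Deviations of same-numbered libraries correlated at 0.194, 0.148 and 0.343 in rad30Δ cells and 0.038, 0.103 and 0.004 in WT cells over all genes tested. Over the 5433 genes that averaged 10 CPM or more they correlated at 0.335, 0.266 and 0.422 in rad30Δ cells and 0.162, 0.233 and 0.108 in WT cells, above the 0.089 that libraries of other numbers reached at most. Whether the samples are paired is therefore not settled, and counts are given with and without the block.

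Estimates near 0 changed sign when single libraries were left out, at −0.387 to 0.131 for MFA2, −0.233 to 0.111 for HMRA1 and −0.135 to 0.038 for HO, and with voom HMRA1 was at 0.005. Of 1197 estimates of 63 named genes under 19 alternatives, 11 reversed sign, 95 newly passed the threshold and 1091 kept their direction and side of it. Of the 95, 30 were with DESeq2, 32 without replicate 3 of induced rad30Δ cells, 22 with voom, 9 with the block and 2 without replicate 1. Part of the named genes were taken because DESeq2, the block or the fit without replicate 3 called them. The count of 95 is therefore in part set by that choice. The median standard error was 1.16 under 1 CPM, where 0 genes passed with or without replicate 3.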
